A study of Mus musculus with 6 samples.

Results

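The lymphocyte lineage genes described here were the T cell receptor signaling chains *Cd3d*, *Cd3e*, *Cd3g* and *Cd247*, the coreceptors *Cd4*, *Cd8a* and *Cd8b1*, the recombinase gene *Rag1* and the B cell receptor chain *Cd79a*. These 9 genes, chosen as markers of the T and B lineages, were followed in whole breast tumors of Rag1-null mice, and all 9 were among the 18460 genes listed in at least 1 tumor. Tumors of 6 female Balb/c mice had been sequenced, 3 in each group, each from a separate mouse. Control mice were PyMTtg;Rag1KO and test mice were K14-TSLPtg;PyMTtg;Rag1KO, and both received CD4+ T cells at 4 weeks of age and had tumors collected at 18 to 20 weeks. Both groups therefore carried the polyoma middle T antigen, driven in mammary epithelium by the MMTV promoter, and lacked *Rag1*. They differed by the transgene that places thymic stromal lymphopoietin (TSLP) under the keratin 14 promoter of keratinocytes. According to the methods of the study, donor cells came from spleens and were sorted as CD3+ CD4+ cells that lacked the NK cell markers NKp46 and CD49b, so the transferred population was selected for CD4 protein.

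The CD3 gamma, delta and epsilon chains and the CD247 (zeta) chain carry the signal of the T cell receptor into the cell. CD4 and CD8 are coreceptors that bind MHC class II and class I, and CD8 is either a pair of alpha chains or an alpha and a beta chain. RAG1 cuts DNA to assemble the receptor genes of T and B cells, and a host without it makes neither cell, so mature T cells in such a tumor would come from the transfer. CD79A is the signaling chain of the B cell receptor. Some of these genes are also used outside the T lineage, since subsets of dendritic cells carry CD4 or the CD8 alpha chain and NK cells use CD247.

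The *Rag1* locus was the designed difference between the hosts and wild-type mice, and the genotyping primers that the study lists for its wild-type allele are printed because they mark coding sequence by which that allele is recognized. Both lie in the coding exon of the minus-strand gene on chromosome 2 of GRCm38, and they span 270 bases at chr2:101642882-101643151.
forward: ccagtagataccattgcgaagagg
reverse: cacgttctgtgaaccatgctctatc
The forward primer matched bases 1739 to 1762 and the reverse primer, as its complement, bases 1984 to 2008 of the 6608-base transcript, whose coding sequence runs from base 95 to base 3214. The deposited counts are totals per gene and cannot be placed along the transcript, so they do not show whether any *Rag1* read came from the interval between these primers.

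Total expected counts ran from 8373390 to 9449565 per tumor. An expected count is the estimated number of reads from a gene, without normalization, and FPKM is that number scaled to gene length and sequencing depth. Values of 3 counts or fewer in a tumor, or 0.317 to 0.358 when scaled to library size as CPM, were treated as at or under the floor, which covers counting error only. *Tslp* itself was listed at 2, 2 and 3 counts in the control tumors and at 12, 7 and 2 in the test tumors, so test replicate 3 was at the control level, and groups follow the labels throughout. Across genes, the log2 CPM of control replicate 2 correlated with the test tumors at Pearson's r of 0.921, 0.927 and 0.935, above its 0.874 and 0.908 with control replicates 1 and 3. Because the samples were whole tumors, fewer cells of a type and less RNA per cell cannot be told apart in any value below.

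No lineage gene differed between test and control tumors in edgeR's quasi-likelihood test at a false discovery rate of 0.05, and by that test 0% of the 13706 genes tested were called. At an unadjusted p under 0.05 it called 8.41% of those genes and none of the 3 lineage genes abundant enough for its low-count filter, *Cd3d*, *Cd247* and *Cd4*. The other 6 lineage genes were fitted without the filter, where 8.04% of 18436 genes but none of the 9 lineage genes had an unadjusted p under 0.05. DESeq2, run on all 18460 listed genes, called 344 genes and none of the 9. It gave no adjusted p for *Cd3e*, *Cd3g*, *Cd8b1* and *Cd79a*, so these could not be called there. The CPM of the groups did not overlap for 10.6% of all listed genes and for 1 of the 9, *Cd8a*. The fitted direction was up for 5 and down for 4 of the 9, the 4 including *Cd79a*, which exceeded the floor in no tumor. None had more than 7.29 FPKM in any tumor, where *Epcam*, an epithelial adhesion molecule, had 141 to 401 FPKM.

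**Figure D1:**
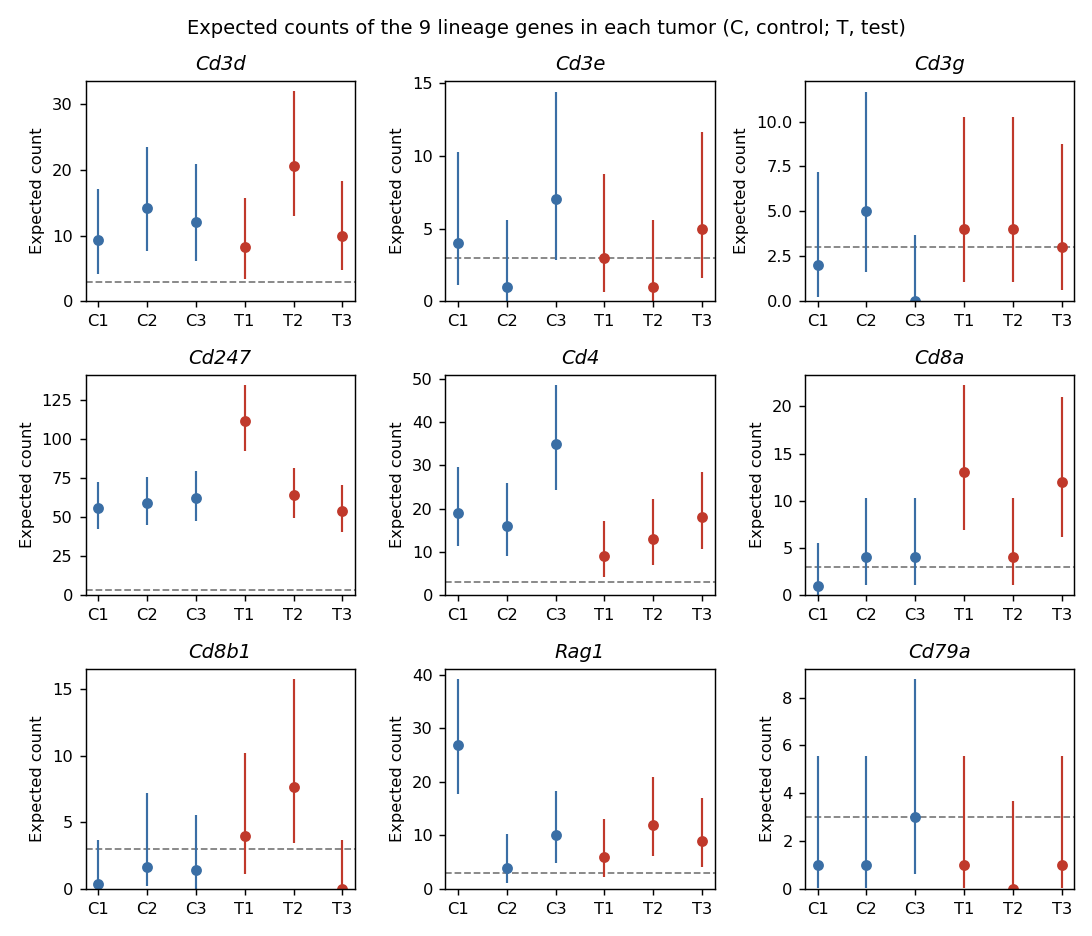
Expected counts of each lineage gene in the 3 control (C, blue) and 3 test (T, red) tumors, each panel with its own linear axis, with exact Poisson 95% intervals that cover counting error only and a dashed line at the floor of 3 counts. *Cd247* is far above the floor in all 6 tumors, *Cd79a* is never above it, and *Cd8a* is at 13 and 12 counts in test replicates 1 and 3 against at most 4 elsewhere.

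*Cd3d*, the delta chain (NCBI Gene 12500, chr9:44981786-44987339, plus strand), had 9.39, 14.28 and 12.08 counts in control replicates 1 to 3 and 8.21, 20.59 and 9.99 in test replicates 1 to 3. The highest and the lowest tumor were both test tumors, and the groups overlapped. Mean FPKM was 1.0 ± 0.225 (SD, n = 3) in control and 1.12 ± 0.601 in test tumors, a log2 fold change of 0.24 (SE 0.61, edgeR quasi-likelihood test with Benjamini-Hochberg adjustment, adjusted p = 0.931). Without test replicate 2, the log2 fold change was -0.36.

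*Cd3e*, the epsilon chain (NCBI Gene 12501, chr9:44998740-45009627, minus strand), had 4, 1 and 7 counts in control tumors and 3, 1 and 5 in test tumors. Only 3 of the 6 tumors exceeded the floor, the lowest value was shared by a control and a test tumor, and the groups overlapped. The log2 fold change was -0.38 with an SE of 1.08 (edgeR, adjusted p = 0.938), and its sign depended on single tumors, at 0.23 without control replicate 3 and 0.01 without test replicate 2. A stretch of 135 bases of the *Cd3e* transcript lies opposite the antisense gene *Gm48719*.

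*Cd3g*, the gamma chain (NCBI Gene 12502, chr9:44969572-44980431, minus strand), had 2, 5 and 0 counts in control and 4, 4 and 3 in test tumors. Control tumors held both extremes, and 3 of the 6 tumors exceeded the floor. The log2 fold change was 0.67 (SE 1.2, edgeR, adjusted p = 0.886), but 1.77 without control replicate 2 and 0.10 without control replicate 3. The 3 CD3 genes are neighbors on chromosome 9, and their summed counts were 15.39, 20.28 and 19.08 in control and 15.21, 25.59 and 17.99 in test tumors. The sum thus stayed in a narrow range in 5 tumors and was highest in test replicate 2.

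*Cd247*, the zeta chain (NCBI Gene 12503, chr1:165788681-165877277, plus strand), had the highest FPKM of the 9 genes in each of the 6 tumors. Its counts were 56, 59 and 62 in control and 112, 64 and 54 in test tumors. Control tumors were close together, while test tumors ran from below the control range in replicate 3 to far above it in replicate 1. Mean FPKM was 3.52 ± 0.222 (SD, n = 3) in control and 4.98 ± 2.12 in test tumors, a log2 fold change of 0.44 (SE 0.41, edgeR, adjusted p = 0.794). Without test replicate 1 it was 0.06.

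The *Cd247* level did not follow the CD3 genes. Its FPKM exceeded that of *Cd3d* by 4.53, 2.72 and 3.72 times in control replicates 1 to 3 and by 9.85, 2.49 and 3.92 times in test replicates 1 to 3. Test replicate 1 had the most *Cd247* and the fewest *Cd3d* counts of all tumors.

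*Cd247* shares its 3′ end with *Pou2f1*, a widely expressed transcription factor gene on the opposite strand, between chr1:165865154-165877277. Of the 4 *Cd247* transcripts in the files that matched the annotation, 3 overlap *Pou2f1* exons, by 782, 1326 and 2136 bases of their 1317, 1816 and 2713. Whether counting used strand is not given in the sources used here, and without strand the reads of this overlap cannot be told apart. *Pou2f1* had 247, 216 and 230 counts in control and 361, 111 and 166 in test tumors. Test replicate 1 was highest for both genes, whereas test replicate 2 had the lowest *Pou2f1* value and the second-highest *Cd247* value. The part of *Pou2f1* reads in the *Cd247* values was not tested.

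**Figure D2:**
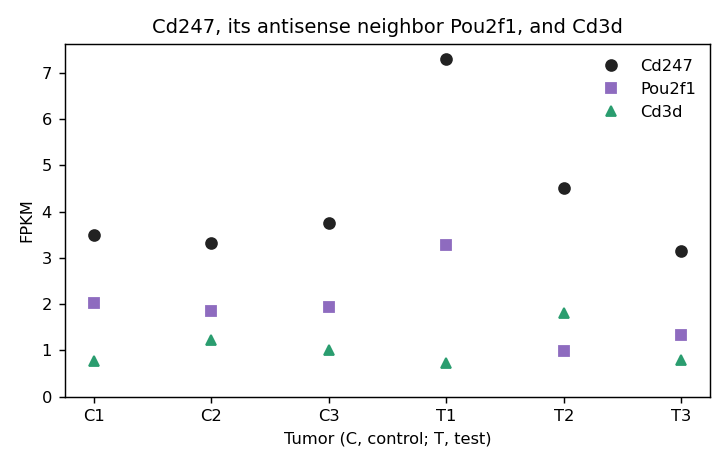
FPKM of *Cd247* (circles), its antisense neighbor *Pou2f1* (squares) and *Cd3d* (triangles) in each control (C) and test (T) tumor. *Cd247* is the highest of the 3 in every tumor and, like *Pou2f1*, peaks in test replicate 1 at 7.29 FPKM, where *Cd3d* is at 0.74.

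*Cd4*, which marks the transferred population (NCBI Gene 12504, chr6:124864692-124888221, minus strand), had 19, 16 and 35 counts in control and 9, 13 and 18 in test tumors. It was above the floor in all 6 tumors, highest in control replicate 3 and lowest in test replicate 1, and the groups overlapped through control replicate 2 and test replicate 3. Mean FPKM was 0.827 ± 0.36 (SD, n = 3) in control and 0.48 ± 0.13 in test tumors. The log2 fold change was -0.75 (SE 0.55, edgeR, adjusted p = 0.75), and an exact two-sided permutation test over the 20 splits gave p = 0.2. When each tumor was left out in turn it ranged from -0.96 to -0.38, with no call.

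*Cd8a*, the CD8 alpha chain (NCBI Gene 12525, chr6:71373427-71379173, plus strand), had 1, 4 and 4 counts in control and 13, 4 and 12 in test tumors. Test replicates 1 and 3 stood above the rest, and test replicate 2 had the same count as control replicates 2 and 3. Scaled to library size, the control tumors had 0.116, 0.433 and 0.426 CPM and the test tumors 1.5, 0.488 and 1.27 CPM, without overlap. The margin between control replicate 2 and test replicate 2 came from library scaling alone. The log2 fold change was 1.69 (SE 0.93, edgeR without a filter, adjusted p = 0.698), and the exact permutation test gave p = 0.1, the smallest that 3 against 3 tumors allow. It stayed positive, from 1.31 to 2.04, when each tumor was left out.

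*Cd8b1*, the beta chain (NCBI Gene 12526, chr6:71322788-71337494, plus strand), had 0.35, 1.67 and 1.4 counts in control and 4, 7.63 and 0 in test tumors. All control tumors were under the floor, and the test tumors held both the highest and the lowest value. The sums, 11.63 counts in test and 3.42 in control, were rounded to 12 and 3, which raised their ratio. After library size the ratio of the rounded sums was 4.13, with an exact 95% interval of 1.11 to 22.8. That interval leaves out the spread between tumors. The exact permutation test gave p = 0.4. The fitted log2 fold change was 1.97 (SE 1.49, edgeR without a filter, adjusted p = 0.764), 0.96 without test replicate 2 and 2.81 without control replicate 2. The tumors with most *Cd8a* and most *Cd8b1* were not the same, as test replicate 3 had 12 *Cd8a* counts and no *Cd8b1* count.

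*Cd4* and *Cd8a* have nearly equal gene lengths in the files, 3095 and 3099 bases, so their counts can be set beside each other. *Cd8a* made up 5.0% (exact Clopper-Pearson 95% interval 0.1 to 24.9), 20.0% (5.7 to 43.7) and 10.3% (2.9 to 24.2) of the counts of both genes in control replicates 1 to 3. In test replicates 1 to 3 it made up 59.1% (36.4 to 79.3), 23.5% (6.8 to 49.9) and 40.0% (22.7 to 59.4). The shares did not overlap between the groups, but the intervals of control replicate 2 and test replicate 2 nearly coincided, and each share rests on 17 to 39 counts.

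The log2 ratio of *Cd4* to *Cd8a* counts, each with 0.5 added, averaged 2.85 ± 0.92 (SD, n = 3) in control and 0.548 ± 1.05 in test tumors. The difference of -2.30 had an exact permutation p of 0.1, the smallest possible. This ratio was chosen after the values were seen, and it uses the same counts as the separate *Cd4* and *Cd8a* values, so it is no further evidence.

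**Figure D3:**
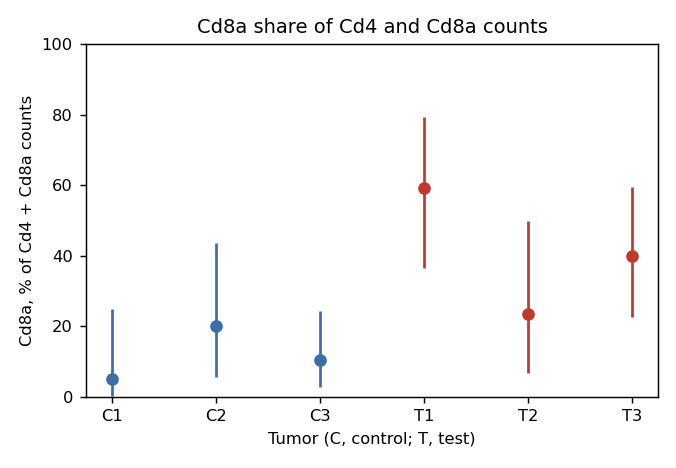
*Cd8a* counts as a percentage of the summed *Cd4* and *Cd8a* counts in each control (C, blue) and test (T, red) tumor, with exact Clopper-Pearson 95% intervals that cover counting error only. The control tumors lie at 5.0% to 20.0% and the test tumors at 23.5% to 59.1%, with intervals that overlap between several tumors of different groups.

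Markers of the cells that can carry *Cd8a* or *Cd4* outside the T lineage were read in the same tumors. All 14 dendritic cell markers were listed in at least 1 tumor, with summed FPKM of 10.24 to 25.38 in control and 13.11 to 19.92 in test tumors. Their most abundant gene was *Itgax*, at a mean of 8.03 FPKM. In test replicate 1, however, *Irf4* alone had 11.76 of the summed 19.92 FPKM and *Itgax* had 3.5. *Irf4* was at 0 to 0.27 FPKM in the other tumors, so the sum of test replicate 1 rested mostly on *Irf4*. *Xcr1* and *Clec9a* mark the dendritic cell subset that carries CD8 alpha in lymphoid tissue. *Xcr1* had 17.54, 9.41 and 28.63 counts in control and 4.21, 22.17 and 14.43 in test tumors, and *Clec9a* had 1, 0 and 3 and 5, 1 and 3. Test replicate 1, which had the most *Cd8a*, had the least *Xcr1* and the most *Clec9a*, although no *Clec9a* value exceeded 5 counts. The 11 macrophage markers, led by *Lyz2*, had summed FPKM of 489.58 to 912.81 in control and 472.97 to 909.55 in test tumors. The part of these cells in the *Cd4* and *Cd8a* values was not tested.

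*Rag1* (NCBI Gene 19373, chr2:101638282-101649501, minus strand) had 27, 4 and 10 counts in control and 6, 12 and 9 in test tumors, above the floor in all 6. Control replicate 1 was highest, the other tumors had at most 12 counts, and the groups overlapped. The log2 fold change was -0.57 (SE 0.86, edgeR without a filter, adjusted p = 0.854) and became 0.45 without control replicate 1. At 0.07 to 0.43 FPKM the level was low. *Rag1* reads were thus listed in every Rag1KO host. They do not check the allele, because the counts have no position and 80 bases of the first exon overlap *B230118H07Rik* on the same strand. *Rag2*, the partner without which RAG1 does not cut, had 1 count in control replicate 1 and none elsewhere, and *Dntt*, which adds bases at the joints, was listed in no tumor.

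*Cd79a* (NCBI Gene 12518, chr7:24897381-24902197, plus strand) had 1, 1 and 3 counts in control and 1, 0 and 1 in test tumors. No tumor exceeded the floor, so no fold change is given. Its summed counts were 5 (exact Poisson 95% interval 1.62 to 11.67) in control and 2 (0.24 to 7.22) in test tumors. A difference was not detectable at this depth.

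**Figure D4:**
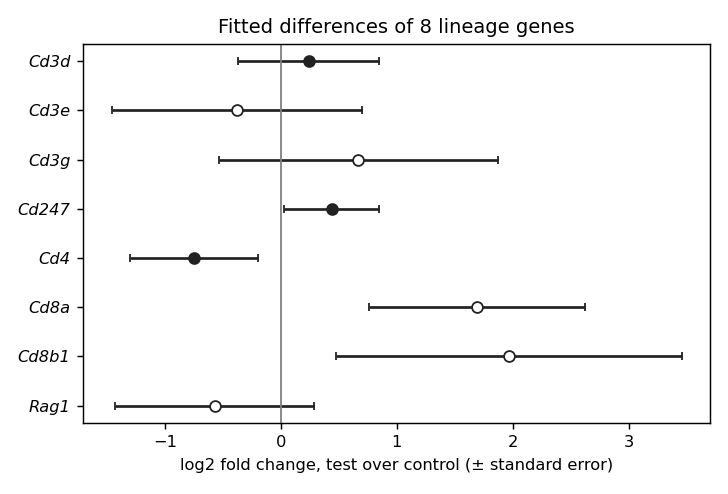
Log2 fold changes, test over control, of 8 lineage genes with their standard errors, from edgeR's quasi-likelihood fit. Filled points are the 3 genes that passed the filter on low counts, open points were fitted without the filter, and *Cd79a* is left out because no tumor exceeded the floor. The estimates run from -0.75 for *Cd4* to 1.97 for *Cd8b1*, and none passed the test.

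Per length, only the top of the order of lineage genes was similar from tumor to tumor. *Cd247* came first in FPKM in all 6, and *Cd3d* second in 5, behind *Cd4* in control replicate 3 alone. *Cd4* ranked 3, 3 and 2 in the control and 5, 4 and 3 in the test tumors. *Cd8a* ranked 8, 5 and 7 in the control and 3, 7 and 4 in the test tumors. *Cd79a* was between ranks 5 and 9. The FPKM ranges of *Cd4*, *Cd3e*, *Cd3g*, *Cd8a*, *Cd8b1* and *Rag1* overlapped one another, so that their order is not set beyond the spread between tumors. *Cd247* lay above 44.6% to 56.8% of all listed genes and *Cd3d* above 29.5% to 38.3%.

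The kinases and adaptors that act next to the CD3 chains were at similarly low levels where they are restricted to lymphocytes. Of 27 listed genes for the T cell receptor and its proximal signaling, 23 were in the files and 5 passed the filter, of which 2 had higher and 3 lower fitted levels in test tumors with no call. The median log2 fold change of the 5 was -0.72, against 0.018 over all tested genes, and ran from -1.04 to -0.42 with each tumor left out. The 3 lower genes were *Fyn*, *Lcp2* and *Ptprc*, a surface protein of leukocytes whose value is that median. The 2 higher genes were *Lck* and *Thy1*. *Lck*, the kinase that phosphorylates the CD3 chains, had 19, 11 and 15 counts in control and 13, 34 and 26 in test tumors, with overlap. Its log2 fold change was 0.75 (SE 0.57, edgeR, adjusted p = 0.76). *Zap70*, which binds the phosphorylated chains, had at most 5 counts in any tumor. *Sh2d1a* was listed in no tumor.

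The largest difference in this list was that of *Fyn*, a kinase also used by many other cells, at 398, 262 and 735 counts in control and 106, 158 and 224 in test tumors. Its groups did not overlap, and the log2 fold change was -1.46 (SE 0.43, edgeR, adjusted p = 0.454). *Lcp2*, an adaptor of lymphoid and myeloid cells, had a log2 fold change of -0.77 (SE 0.48, edgeR, adjusted p = 0.703). *Thy1*, a surface protein of T cells and also of stromal cells, had the highest mean level of the list, 27.5 FPKM. It ran from 83 to 966 counts within the test group alone. The constant region genes of the T cell receptor, *Trac*, *Trbc1* and *Trbc2*, were not analysed here.

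Transcription factors of the T lineage ran from *Ikzf3*, at a mean of 0.037 FPKM and at most 4 counts, to *Gata3* at 77.3 FPKM. All 12 were in the files and 10 were tested, of which 2 had higher and 8 lower test levels. Their median log2 fold change was -0.55, from -0.83 without test replicate 1 to -0.41 without control replicate 2, and none was called. An unadjusted p under 0.05 was reached by 5, all lower in test tumors, against 8.41% of all tested genes. *Bcl11b*, required for T cell commitment and also expressed in epithelium, had 322.01, 379.02 and 208.05 counts in control and 49.51, 87.63 and 125.69 in test tumors. The groups did not overlap, with a log2 fold change of -1.75 (SE 0.4, edgeR, adjusted p = 0.394). The same held for *Ikzf1*, a factor of blood cell development, at a log2 fold change of -1.70, and for *Ets1* at -1.68 (both with an edgeR adjusted p of 0.394).

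*Lef1* had 913, 23 and 74 counts in control and 1, 40 and 1 in test tumors. Its log2 fold change of -4.52 (SE 1.74, edgeR, adjusted p = 0.542) stood beside a control replicate 1 far above all other tumors, and the groups overlapped. *Gata3*, a factor of T helper cells and of the mammary luminal epithelium, had the highest mean level of the list, with 2009 to 2561 counts in every tumor. *Zbtb7b*, the factor of CD4 lineage choice, had a mean of 29.7 FPKM and a log2 fold change of -0.18 (SE 0.34, edgeR, adjusted p = 0.9).

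Among 13 genes of helper, naive and memory CD4 cells, 11 were in the files and 5 were tested, 4 higher and 1 lower, with a median log2 fold change of 0.17 and no call. The median was -0.09 without test replicate 3 and 0.40 without control replicate 1. *Foxp3*, the factor of regulatory T cells, had 39, 61 and 82 counts in control and 30, 91 and 58 in test tumors, with wide overlap (log2 fold change 0.06, SE 0.52, edgeR, adjusted p = 0.978). At 0.96 to 2.84 FPKM, it exceeded *Cd4* per length in all 6 tumors. Which cells of the tumors carried *Foxp3* RNA was not tested. *Il7r*, the receptor chain shared by interleukin-7 and TSLP, had 70.93, 13.55 and 17.57 counts in control and 8.13, 13.9 and 22.4 in test tumors. Control replicate 1 was apart from the others, and the log2 fold change was -1.22 (SE 0.78, edgeR, adjusted p = 0.711). *Il2ra*, the interleukin-2 receptor alpha chain, was highest in test replicate 3 at 81.66 counts against 14.64 to 23.2 elsewhere. *Cd44*, an adhesion molecule of many cells, had a mean of 38.5 FPKM. *Il2* and *Cd40lg*, products of activated helper cells, were listed in no tumor.

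Of 13 genes of CD8 and cytotoxic lymphocytes, 12 were in the files and 4 were tested, 1 higher and 3 lower, with a median log2 fold change of -0.29, which was 0.35 without control replicate 1 and -0.77 without test replicate 2. *Gzmb*, a cytotoxic granule protease, had 43, 4 and 8 counts in control and 12, 14 and 5 in test tumors. *Ccl5*, a chemokine of activated lymphocytes, had the highest mean level at 4.08 FPKM, with 42, 12 and 11 counts in control and 14, 11 and 33 in test tumors. Neither followed the *Cd8a* order. *Gzma*, a granule protease of cytotoxic cells, was second in mean level at 1.40 FPKM and did not pass the filter. It had 6, 1 and 5 counts in control and 14, 31 and 6 in test tumors, with overlap. *Itgae*, an integrin chain of T cells and dendritic cells in epithelium, had a log2 fold change of -0.41 (SE 0.65, edgeR, adjusted p = 0.88), and *Gzmk* was listed in no tumor.

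The gamma-delta T cell list could hardly be measured, since 1 of its 8 genes was tested. This was *Sox13*, also expressed outside the lineage, at a log2 fold change of 1.08 (SE 0.54, edgeR, adjusted p = 0.658) and at 0.52 without test replicate 1, while *Il17a* was listed in no tumor. Of 12 NK and innate lymphoid genes, 6 were tested, 3 higher and 3 lower with a median log2 fold change of 0.10, which was -0.12 without control replicate 2. *Ncr1*, which encodes NKp46, had 6, 6 and 8 counts in control and 1, 10 and 4 in test tumors. The 2 most abundant genes of this list, *Id2* at 159 FPKM and *Fcgr3* at 24.2 FPKM, are shared with other cell types. The largest fitted differences were those of *Klri2*, at a log2 fold change of 0.68 (SE 1.03, edgeR, adjusted p = 0.873), and of *Il18r1*, at 0.61 (SE 0.6, edgeR, adjusted p = 0.801). *Klra8* was listed in no tumor.

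Defining B cell genes were not at a common level. *Ms4a1*, *Pax5* and *Vpreb3* were listed in no tumor, which allows up to 3 counts in each. *Cd79b*, the partner of CD79A, had 3, 1 and 6 counts in control and 2, 16 and 1 in test tumors, and so exceeded the floor in control replicate 3 and test replicate 2. *Cd22*, an inhibitory coreceptor of B cells, was higher, at 64.73, 77 and 102.97 counts in control and 91.61, 181.86 and 55.94 in test tumors, with overlap and a mean of 2.70 FPKM. *Tnfrsf13c*, the receptor for the B cell survival factor BAFF, had 20.31, 30.01 and 9.05 counts in control and 5.03, 16.39 and 6.64 in test tumors. Of 28 B and plasma cell genes, 19 were in the files and 7 were tested, 4 higher and 3 lower with a median log2 fold change of 0.27. The median was -0.11 without test replicate 2, 0.0 without test replicate 3 and 0.05 without control replicate 1. Their most abundant members, *Cd74* at 250.5 FPKM and *Blnk* at 20.1 FPKM, serve other cells too.

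*Pou2af1*, a coactivator of octamer factors in B cells, had 1407, 11 and 712 counts in control and 8, 5 and 18 in test tumors. Control replicates 1 and 3 were far above the rest, control replicate 2 was within the test range, and the log2 fold change was -6.09 (SE 1.5, edgeR, adjusted p = 0.394). *Cd79a* had 1 and 3 counts in the tumors with 1407 and 712 *Pou2af1* counts. *Btk*, a kinase of B and myeloid cells, had 28, 20 and 39 counts in control and 9, 10 and 19 in test tumors without overlap (log2 fold change -1.15, SE 0.54, edgeR, adjusted p = 0.636). The immunoglobulin constant region genes were not analysed here.

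Of 9 further genes of V(D)J recombination, 8 were in the files and 7 were tested, 1 higher and 6 lower with a median log2 fold change of -0.21 (-0.34 to -0.05 with each tumor left out) and none called. The tested genes belong to the end-joining repair that every cell uses. *Prkdc*, the kinase of this pathway, had 231, 274 and 252 counts in control and 133, 103 and 153 in test tumors without overlap (log2 fold change -0.91, SE 0.25, edgeR, adjusted p = 0.43). *Xrcc6* and *Xrcc5*, which encode the proteins that bind broken ends, were the most abundant at 21.7 and 18.5 FPKM. Their log2 fold changes were -0.11 (SE 0.44, edgeR, adjusted p = 0.958) and -0.44 (SE 0.28, edgeR, adjusted p = 0.707).

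**Figure D5:**
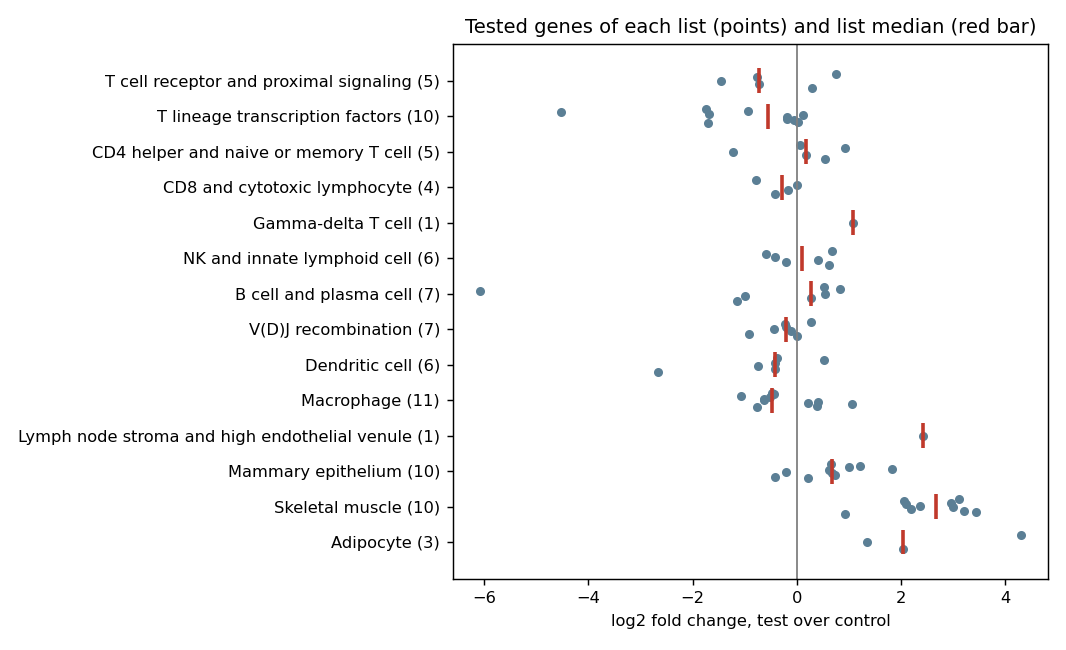
Log2 fold changes, test over control, of the tested genes of each list, with the number tested in parentheses, red bars at the list medians and vertical jitter for legibility. The lymphocyte lists have medians from -0.72 to 1.08, the highest being that of a list with 1 tested gene, and the muscle and adipocyte lists lie at 2.67 and 2.03, or 1.23 and 1.17 without test replicate 1, and the muscle list at 5.9 without control replicate 2.

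Other tissue in the tumors varied with the groups and with single tumors. The 10 mammary epithelial markers, led by *Krt18*, had summed FPKM of 1194.07, 2502.35 and 1352.46 in control and 3271.41, 3147.14 and 3181.81 in test tumors, without overlap. Taken singly, 8 of these markers had higher and 2 had lower fitted levels in test tumors, and none was called. The groups did not overlap for only 3 of them, *Krt8*, *Krt18* and *Krt19*. The 10 skeletal muscle markers, led by *Acta1*, had 13.41, 127.93 and 17.55 against 597.86, 130.15 and 85.54. The 7 adipocyte markers, led by *Fabp4*, had 38.25, 23.78 and 32.42 against 322.9, 91.23 and 26.34. Test replicate 1, which had the most *Cd247* and *Cd8a* and the least *Cd3d* and *Cd4*, was therefore also the tumor with the most muscle and adipocyte RNA. The part of this in the lineage gene values was not tested. Lymph node stroma markers were led by *Glycam1*, a glycoprotein of lymph node vessels and of milk, at 1279 counts in test replicate 2 and at most 9 elsewhere. *Ccl21a* had 13 counts in control replicate 2, 34 in test replicate 2 and none elsewhere, and *Chst4* was listed in no tumor. Other genes of this list had another order. *Cxcl13* was highest in test replicate 1, at 437 counts against 238 in test replicate 2. *Ltb* was highest in test replicate 3, at 18 counts against 7 in test replicate 2, where *Madcam1* and *Ccl19* had no count. Test replicate 2 was also the tumor with the most *Cd3d* and *Cd8b1*. The part of lymph node tissue in the lineage gene values was not tested.

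Genes with the most similar pattern over the 6 tumors were found by the root mean square difference of centered log2(CPM + 0.5) values. Nearest to the mean profile of the CD3 genes were *Smc1a* (0.035), *Zfp672* (0.048), *Tsg101* (0.05), *Copb2* (0.051) and *Ube2d2a* (0.051), against a median of 0.432 over 13703 tested genes. The CD3 profile itself spanned only -0.08 to 0.19, so genes that vary little are near it. Nearest to *Cd4* were *Pdgfrb* (0.11), *Gtse1* (0.122), *Mir99ahg* (0.142), *Bambi* (0.151) and *Cd48* (0.152), against a median of 0.611. These distances are descriptions over 6 tumors.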

How the data were processed

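Total RNA of 6 whole tumors, 3 control and 3 test, was sequenced by Beijing Genomics Institute. Reads were aligned to mm10 with Bowtie, and the submitters' processing notes also name BWA and RSEM. The annotation release and strand setting are not given in the sources used here. The authors deposited, per gene and tumor, an expected count without normalization, an FPKM normalized by the authors for gene length and depth, and the gene length. Between 79.0% and 80.1% of the counts of a tumor were within 0.005 of a whole number. Genes not listed for a tumor were set to 0. Symbols came from a RefSeq table on GRCm38.p6 (18400 of 18460 genes matched), and coordinates from GENCODE annotation of GRCm38, the mm10 build.

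Rounded counts were tested with edgeR 4.0.16 in R 4.3.3 (filterByExpr, TMM, quasi-likelihood test without covariates, Benjamini-Hochberg adjustment), and genes under the filter were fitted without it. The common biological coefficient of variation was 0.434. Exact permutation tests on log2(CPM + 0.5) were two-sided. Alternatives were DESeq2 1.42.0, RLE scaling, no filter, a filter of 10 counts in every tumor, limma 3.58.1 on FPKM with 1 or 0.1 added before the log2 (genes averaging 1 FPKM or more), a block for the replicate number, and leaving out each tumor.

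Lineage genes, lists, tests and the naming rule were chosen with earlier results of these data known. The rule names all 9 lineage genes, in each lymphocyte list the 2 tested genes with the largest absolute fold change, the 2 with the highest mean FPKM and defining genes at 0, in other lists the most abundant gene and defining markers at 0, and the 5 genes nearest each profile. *Pou2f1*, *Lck*, *Zap70*, *Ptprc*, *Ikzf1*, *Ets1*, *Ncr1*, *Cd79b*, *Cd22*, *Tnfrsf13c*, *Ikzf3*, *Rag2*, *Xcr1*, *Clec9a*, *Ly75*, *Ccl21a*, *Cxcl13*, *Ltb*, *Madcam1*, *Ccl19*, *Epcam*, *Krt8*, *Krt19* and the closing genes other than *Gzma* were named after their values were seen. Some genes of the lists are not reported here.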

Additional observations from a re-analysis of the deposited data

How the results depend on the processing

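None of the 9 lineage genes was called under any alternative, and the lowest adjusted p was 0.535, for *Cd4* without control replicate 2. Of 89 fold changes of these genes under alternatives, 9 of them for *Cd79a*, at or under the floor in every tumor, 85 kept their direction. The 4 that did not had a tumor left out: *Cd3d* was at -0.36 without test replicate 2, *Cd3e* at 0.23 without control replicate 3 and 0.01 without test replicate 2, and *Rag1* at 0.45 without control replicate 1. With each tumor left out, these genes ranged from -0.36 to 0.49, from -0.88 to 0.23 and from -1.01 to 0.45, while *Cd3g* ranged from 0.10 to 1.77 and *Cd8b1* from 0.96 to 2.81. Over all genes, the number called was 0 with edgeR, 344 with DESeq2, 1 with limma on log2(FPKM + 1), and from 0 to 182 with a tumor left out, 182 without control replicate 2. The cause was not tested. At an unadjusted p under 0.05, edgeR had 1153 genes, and 654, 2020 and 701 without control replicates 1, 2 and 3. The filter of 10 counts kept only *Cd247*, and the FPKM minimum only *Cd247* and *Cd3d*, so the other genes have no value there. DESeq2 gave no adjusted p for *Cd3e*, *Cd3g*, *Cd8b1* and *Cd79a*. The *Cd4* to *Cd8a* log2 difference, whose alternatives were chosen after the data were seen, was -2.13 with 1 count added, -1.75 from FPKM, and -2.82 to -1.78 with a tumor left out. At 3 tumors per group and 0 to 35 counts for most of these genes, depth limits all of these values.

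With the replicate number as a block, 0 genes were called, and the log2 fold changes were 0.12 for *Cd3d*, 0.36 for *Cd247*, -0.72 for *Cd4* and 1.65 for *Cd8a*. The block changed no call. Tumors of the same number came from different mice, and the correlations of their deviations from the group means were -0.025, 0.121 and -0.137, so the numbers were not taken as pairs.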

Other observations

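Control replicate 1 had the highest counts of some lymphocyte genes that were not in the comparisons above. *Prf1*, the pore-forming protein of cytotoxic granules, had 26 counts there against 1 to 11 elsewhere, and *Cd28*, a costimulatory receptor, had 13 against 0 to 4. The CD3 genes did not share this order, since control replicate 1 had 15.39 summed CD3 counts, near the lowest of the 6 tumors.

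*Gzma*, given above with the cytotoxic genes, had its highest value of 31 counts in test replicate 2. *Cd2*, an adhesion molecule of T and NK cells, had 2, 0 and 2 counts in control and 6, 5 and 3 in test tumors, without overlap, but its values lay near the floor of 3 counts.

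*Jchain*, which joins secreted immunoglobulins, had 41 counts in control replicate 2 and 3 to 6 elsewhere, in a tumor with 1 count each of *Cd79a* and *Cd79b*. *Irf4*, a factor of plasma cells, activated T cells and dendritic cells, had 466 counts in test replicate 1 and 0 to 11 elsewhere.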
